A study of Homo sapiens with 4 samples.

Results

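The genes described here encode phosphatases that remove phosphate from the C-terminal domain (CTD) of RNA polymerase II, together with subunits that bring one of them to the polymerase. They were listed by symbol and by function, and all 9 (RPAP2, SSU72, CTDP1, CTDSP1, CTDSP2, CTDSPL, PPP1R10, WDR82 and PPP1CA) were found among the 69222 gene identifiers of the deposited count tables. The working name of the set also mentions an isomerase, but none of the 9 genes encodes one. Poly(A) RNA was sequenced from HEK293T, a human embryonic kidney cell line with the large T antigen of SV40. In one group of 2 libraries (shCtrl) the cells had received a control short hairpin RNA (shRNA) by lentivirus, and in the other group of 2 libraries (shRPRD1B) an shRNA against RPRD1B. Both groups therefore share the cell line and the lentiviral transduction, and no time after transduction is given in the sources used here. Whether the replicates were separate cultures is not stated, so the p-values rest on a spread that may be only technical. In such bulk RNA, fewer cells with a transcript and less of it per cell cannot be told apart.

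The CTD is a long tail of repeated heptapeptides on the largest polymerase subunit. Its serines are phosphorylated by cyclin-dependent kinases as the polymerase leaves the promoter and elongates, and the phosphatases reset the tail during elongation, at the 3′ end of genes and after release, so that the enzyme can start again. RPRD1B, the target of the hairpin, binds the phosphorylated CTD and is known to associate with RPAP2. Phosphatase activity itself was not measured.

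Library totals lay between 47732913 and 65572391 counts. RPRD1B stood at 50.4 and 50.1 CPM (counts scaled to a common library size) in shCtrl and at 27.2 and 35.5 CPM in shRPRD1B, the direction the labels give, a difference called by DESeq2 (adjusted p = 0.0418) and not by edgeR (adjusted p = 0.448). Markers of HEK293 cells (KRT8, KRT18, VIM, CDH2 and PAX2) were present in every library, with a summed level of 376 to 378 CPM in shCtrl and 351 to 400 CPM in shRPRD1B. Single markers differed more: in shRPRD1B 2, KRT8 had 6.46 CPM against 22.9 to 27.1 CPM in the other 3 libraries, and CDH2 had 129 CPM against 88.7 to 97.3 CPM. The 11 markers of leukocytes, endothelium, fibroblasts, hepatocytes and astrocytes summed to 4.85 to 5.19 CPM in shCtrl and 3.41 to 5.28 CPM in shRPRD1B, most of it from GFAP and AQP4, and COL1A2 had 0 counts. The 2 knockdown libraries differed from each other more than the controls did: over 8966 genes of at least 16 CPM, the SD of the log2 ratio between libraries was 0.39 for shRPRD1B and 0.17 for shCtrl.

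Of these genes, 4 carry a microRNA gene inside an intron, on the same strand. Their mature sequences are shown because they are made from the same primary transcripts as the host mRNAs, yet are not measured by the mRNA counts. CTDSP1 holds MIR26B in intron 4 of 6, CTDSP2 holds MIR26A2 in intron 5 of 7, CTDSPL holds MIR26A1 in intron 5 of 7, and WDR82 holds MIRLET7G in intron 2 of 8 (principal transcripts of GENCODE 29). In the sequences, taken from RefSeq (GRCh38.p14), capitals mark the seed, bases 2 to 8 from the 5′ end, which pairs with target mRNAs.
hsa-miR-26b-5p (chr2:218402657-218402677, plus strand, in CTDSP1): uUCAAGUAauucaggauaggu
hsa-miR-26a-5p (chr12:57824658-57824679, minus strand, in CTDSP2, and chr3:37969413-37969434, plus strand, in CTDSPL): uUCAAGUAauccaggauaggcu
hsa-let-7g-5p (chr3:52268336-52268357, minus strand, in WDR82): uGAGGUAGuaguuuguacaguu
The 3 small CTD phosphatase genes thus host microRNAs with 1 shared seed, UCAAGUA. Counted from the 5′ end, miR-26b differs from miR-26a by C11U and C21U and is 1 base shorter at 21 bases. The counts assigned to MIR26B were 1, 0, 0 and 0, those to MIR26A2 were 3, 2, 3 and 0, and MIR26A1 and MIRLET7G had 0 in every library (shCtrl 1, shCtrl 2, shRPRD1B 1 and shRPRD1B 2, here and in each series of 4 values below). A poly(A) library of this kind is not made to hold mature microRNAs, so these counts say nothing of their level.

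The first question was how abundant each phosphatase transcript was. Levels were compared between genes as CPM per kb, using the combined exon length of each gene in GENCODE 29, a length that may exceed that of the transcripts in these cells. PPP1CA was highest, with a mean of 94.9 CPM per kb in shCtrl, followed by SSU72 (43.7), WDR82 (31.5), CTDSP2 (23.7), CTDSP1 (15.7), CTDSPL (7.99), RPAP2 (2.72) and CTDP1 (2.49 CPM per kb). Neighbours in this order did not overlap in any of the 4 libraries, except SSU72 with WDR82 and RPAP2 with CTDP1. The order depends on the length used. In CPM, SSU72 was higher than PPP1CA, with means of 303 and 257 in shCtrl. The principal transcript of SSU72 has 1290 bases against 6925 of combined exons, and that of PPP1CA 1476 against 2711. The combined exon length of RPAP2, 17142 bases, is the longest of the 9, and 15045 bases of its principal transcript are 3′ UTR. PPP1R10 was close to 0 and is treated apart.

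The second question was whether any of these transcripts differed between the groups. None was called: 8 of the 9 had enough counts to be tested, and 0 of them passed edgeR's quasi-likelihood test at a Benjamini-Hochberg adjusted p of 0.05, against 0.0689% of the 20319 genes tested. The smallest adjusted p among them was 0.744 with edgeR and 0.932 with DESeq2, which called 0 of the 8 and 1.18% of all tested genes. At an unadjusted p under 0.05 the count was likewise 0, against 7.49% of all tested genes, and limma voom also called 0. Both knockdown libraries lay on one side of both controls for 2 of the 8 genes, against 40.9% of all tested genes. The log2 fold changes ran from -0.15 to 0.21, with 6 positive and 2 negative and a median of 0.08, beside a median of 0.00 over all tested genes. The median difference of the 8 genes from the control mean was 0.09 in shRPRD1B 1 and -0.009 in shRPRD1B 2. Without shRPRD1B 1 the median log2 fold change of the 8 genes was -0.008, so the 0.08 was not shared by both knockdown libraries. The intervals also bound the difference, given the spread between 2 libraries a group, which may be only technical. The 95% intervals of the 8 genes lay between -0.43 and 0.57 on the log2 scale, that is between 0.741 and 1.48 times the control level, so a doubling or halving of any of the 8 transcripts lies outside its interval. With 2 libraries a group, an exact two-sided permutation test cannot go below 0.333, so no such test was used for single genes.

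**Figure D1:**
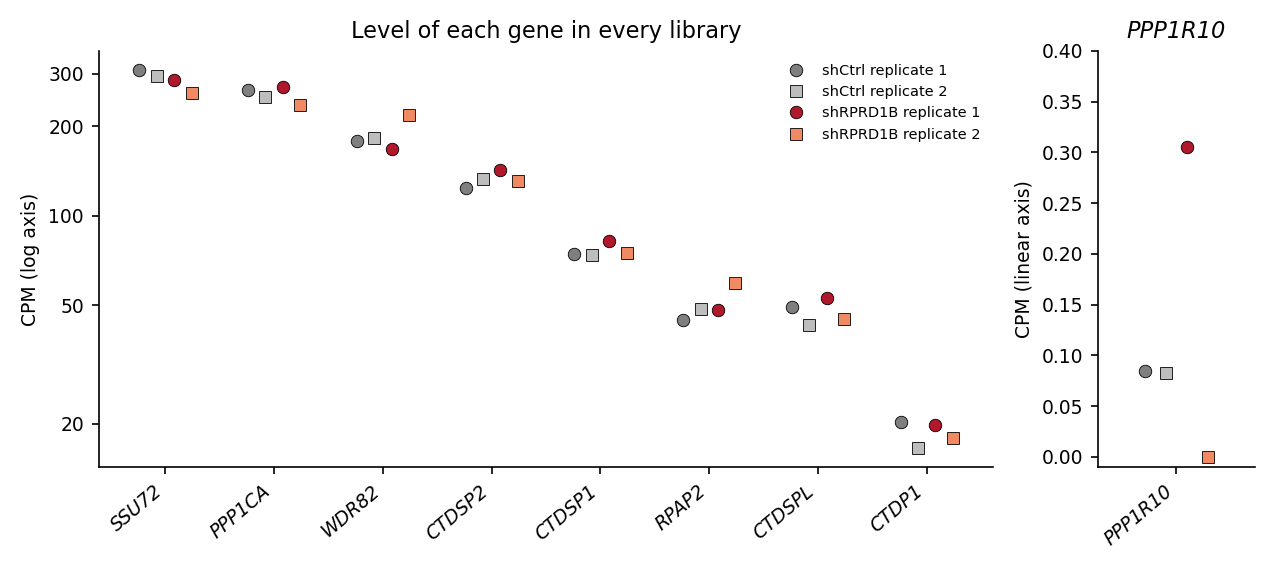
CPM of the 9 genes in each of the 4 libraries (points), on a log axis for the 8 tested genes, ordered by their mean in shCtrl, and on a linear axis for PPP1R10. The levels span 16.6 to 310 CPM for the tested genes with the groups close together, while PPP1R10 lies between 0 and 0.305 CPM.

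RPAP2 and SSU72 both act on the CTD marks of early transcription. RPAP2 (ENSG00000122484.9, chromosome 1, 92299059 to 92402056 in GRCh38, plus strand) encodes an atypical phosphatase that also takes part in bringing the polymerase into the nucleus. It stood at 44.5, 48.6, 48.4 and 59.4 CPM. Only shRPRD1B 2 lay above both controls, and shRPRD1B 1 fell between them, so the groups overlapped. The log2 fold change of RPAP2 was 0.21 ± 0.15 (SE, 95% interval -0.15 to 0.57, edgeR adjusted p = 0.744), the largest of the 8 in size. Without shRPRD1B 1 the value for RPAP2 was 0.35 (adjusted p = 0.00417, from a fit in which the lone knockdown library is assumed to vary like the controls), and without shRPRD1B 2 it was 0.06 (adjusted p = 0.726). GLMN, a gene on the opposite strand, spans part of RPAP2 and shares 23 of its 17142 exonic bases.

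SSU72 (ENSG00000160075.12, chromosome 1, 1541673 to 1574863, minus strand) encodes a phosphatase of the cleavage and polyadenylation machinery, which it joins through symplekin. It had 310, 296, 286 and 259 CPM. Both knockdown libraries lay below both controls, as was the case in this direction for 20.6% of all tested genes. The means were 303 ± 9.75 CPM in shCtrl and 273 ± 19.1 CPM in shRPRD1B (SD, n = 2 each). The log2 fold change was -0.15 ± 0.11 (95% interval -0.43 to 0.13, edgeR adjusted p = 0.751), and it was -0.22 without shRPRD1B 1 (adjusted p = 0.0124 in the fit with a lone knockdown library) and -0.08 without shRPRD1B 2 (adjusted p = 0.473). The 6 SSU72-like genes of the human genome, whose similar sequence could share reads with SSU72, held at most 1 count in any library. How reads with several matches were counted is not given, so this does not show whether SSU72 lost any.

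The FCP/SCP phosphatases share a catalytic fold. CTDP1 (ENSG00000060069.18, chromosome 18, 79676768 to 79756625, plus strand) encodes FCP1, which binds TFIIF and recycles the polymerase. It was the least abundant of the tested genes at 20.3, 16.6, 19.8 and 17.9 CPM. Its knockdown libraries lay between the controls, which differed from each other by 0.29 on the log2 scale. The log2 fold change of CTDP1 was 0.03 ± 0.16 (95% interval -0.37 to 0.43, edgeR adjusted p = 0.969).

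CTDSP1, CTDSP2 and CTDSPL encode the small CTD phosphatases, which are recruited by the repressor REST to neuronal genes and also act on proteins other than the polymerase. CTDSP1 (ENSG00000144579.8, chromosome 2, 218396351 to 218405941, plus strand) had 74.3, 73.8, 82.6 and 74.9 CPM. Both its knockdown libraries lay above both controls, as for 20.3% of all tested genes, but shRPRD1B 2 by a narrow margin. CTDSP2 (ENSG00000175215.11, chromosome 12, 57819927 to 57846729, minus strand) had 124, 133, 142 and 131 CPM. CTDSPL (ENSG00000144677.15, chromosome 3, 37861880 to 37984469, plus strand) had 49.4, 43.1, 52.9 and 45.1 CPM, and the groups overlapped for both. The log2 fold changes were 0.09 ± 0.11 for CTDSP1, 0.09 ± 0.11 for CTDSP2 and 0.08 ± 0.14 for CTDSPL (SE, edgeR adjusted p = 0.844, 0.847 and 0.886). With 1 library left out they ranged from 0.018 to 0.16 for CTDSP1, from 0.028 to 0.15 for CTDSP2 and from -0.035 to 0.20 for CTDSPL, which was negative without shRPRD1B 1 and without shCtrl 2. Per kb, CTDSP2 made up 48.5%, 51.5%, 49.6% and 50.5% of the summed level of the 3 genes, CTDSP1 33.4%, 32.8%, 33.1% and 33.2%, and CTDSPL 18.1%, 15.6%, 17.3% and 16.3%. The proportions of the small phosphatases in the knockdown libraries thus stayed within the range of the controls for each of the 3 genes. The shares rest on combined exon lengths of 4727 bases for CTDSP1 and 5442 for CTDSP2, where the principal transcripts have 2638 and 4795.

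The third branch is protein phosphatase 1 in its complex with PPP1R10, WDR82 and TOX4, which acts on the CTD late in elongation and slows the polymerase past the cleavage site. PPP1CA (ENSG00000172531.16, chromosome 11, 67398183 to 67401858, minus strand), a catalytic subunit that serves many other complexes too, had 264, 250, 271 and 235 CPM. Its knockdown libraries lay on either side of the controls, and its log2 fold change was -0.02 ± 0.12 (95% interval -0.32 to 0.28, edgeR adjusted p = 0.968). PPP1CA shares 228 of its 2711 exonic bases with RAD9A on the opposite strand, which had 37.3 to 44.7 CPM, and the strand setting of the counts is not given. Among the 3 genes of the PP1 catalytic subunits, PPP1CA gave 57.2%, 55.3%, 56.3% and 51.6% of the summed level per kb. The value in shRPRD1B 2 was the lowest, with PPP1CC at 33.8% there against 30.0%, 31.0% and 29.3% in the other libraries. Without division by length, PPP1CC led in every library, with 47.5%, 48.4%, 46.1% and 51.0% of the summed CPM. PPP1CA then gave 35.6%, 33.9%, 34.8% and 30.6%, so which gene leads depends on the length used.

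WDR82 (ENSG00000164091.12, chromosome 3, 52254434 to 52278649, minus strand) encodes a WD-repeat protein that reads the phosphorylated CTD and is also a subunit of the SET1 histone methyltransferases. It had 178, 183, 167 and 218 CPM. The knockdown libraries lay on opposite sides of the controls, shRPRD1B 1 below and shRPRD1B 2 above. The group value of 0.09 ± 0.15 (95% interval -0.28 to 0.47, edgeR adjusted p = 0.879) therefore averages a difference from the control mean of -0.11 in one library and 0.27 in the other. Without shRPRD1B 1 the log2 fold change was 0.27 (adjusted p = 0.00339 in the fit with a lone knockdown library), and without shRPRD1B 2 it was -0.11 (adjusted p = 0.329). RPAP2, SSU72 and WDR82 were the 3 of 8 genes called without shRPRD1B 1, a fit that called 29.1% of all genes tested in it.

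**Figure D2:**
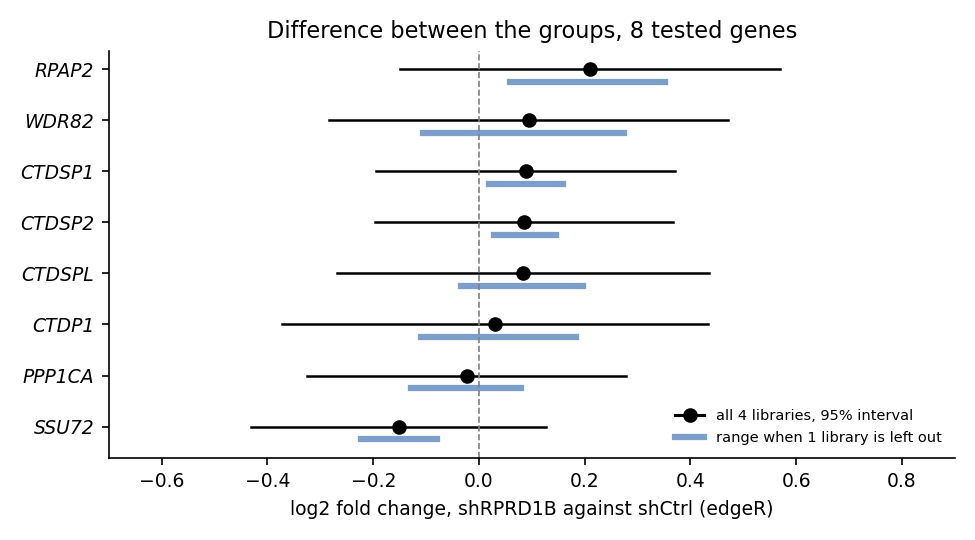
Log2 fold change of the 8 tested genes, shRPRD1B against shCtrl, with points and black lines for the edgeR estimate and its 95% interval and blue bars for the range of estimates when 1 library is left out. Every black interval includes 0, and the blue bars of WDR82, CTDSPL, CTDP1 and PPP1CA also cross 0.

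PPP1R10 encodes PNUTS, the scaffold that targets PP1 to the polymerase, and its counts were close to 0. Whether they reflect the level of its transcript was not tested. PPP1R10 (ENSG00000204569.10, chromosome 6, 30600413 to 30617243, minus strand) had 4, 4, 20 and 0 counts, or 0.0844, 0.0822, 0.305 and 0 CPM, and did not pass the filter on low counts. The 0 in shRPRD1B 2 allows up to 3 counts, or 0.0547 CPM, by counting error alone, which the 20 counts of the other knockdown library exceed. No fold change is given. The genes around it were low too. Of 14 other protein-coding genes within 250 kb, 13 had a mean under 1 CPM, against 35.1% of all 19242 protein-coding genes examined. Among these neighbours TUBB, a beta-tubulin gene, reached at most 33 counts in a library, and C6orf136, PPP1R18, NRM and IER3 had 0 counts throughout. ABCF1 was the exception at 3.91 CPM.

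The region lies in the major histocompatibility complex, for which the human genome has alternate sequences. GENCODE 29 lists 49 transcripts named PPP1R10, of which 42 are not on the primary assembly, and all 14 neighbours have such transcripts too. Over the whole table, 77.6% of 1038 protein-coding genes with transcripts outside the primary assembly had a mean under 1 CPM, against 32.7% of the 18204 without, although the first set also holds many genes of immune and receptor families. CTDP1 also has 5 of 13 transcripts outside the primary assembly and was counted at 807 to 1295 reads, and the other 7 genes have 0. POLR2A, the gene of the subunit that carries the CTD, had a mean of 1.11 CPM although 0 of its 9 transcripts lie outside the primary assembly. Which sequences the alignment index held and how reads with several matches were counted is not given in the sources used here, and their part in the low counts was not tested. PPP1R11, a PP1 inhibitor gene that also has most of its transcripts (42 of 48) outside the primary assembly, was as low, at 12, 6, 8 and 0 counts.

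**Figure D3:**
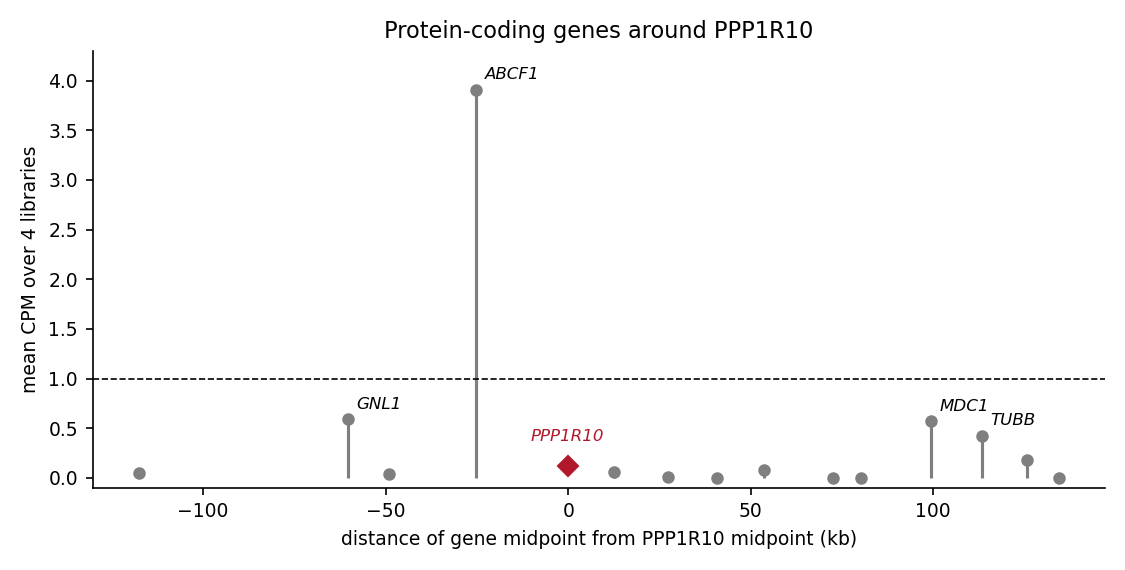
Mean CPM over the 4 libraries of PPP1R10 (red) and of the 14 other protein-coding genes within 250 kb (grey), against the distance between gene midpoints in kb. The dashed line marks 1 CPM, and ABCF1 at 3.91 CPM is the one gene above it.

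Because the knockdown libraries did not move together, the difference between them was examined beside a feature that the list did not use, the length of the annotated 3′ UTR. From shRPRD1B 1 to shRPRD1B 2 the tested genes of at least 16 CPM shifted with this length. The median log2 difference was -0.15 for the 2166 genes with 3′ UTRs of up to 509 bases, 0.00 for those up to 1247 bases, 0.10 up to 2606 bases and 0.19 above that, while between shCtrl 1 and 2 the same medians ran from -0.04 to 0.04. RPAP2, with a 3′ UTR of 15045 bases, and WDR82, with 3069 bases, were higher in shRPRD1B 2, by 0.29 and 0.38. SSU72 and PPP1CA, with 393 and 334 bases, were lower by 0.14 and 0.21. The FCP/SCP genes did not follow this order: CTDSP2 (3675 bases), CTDSPL (3602 bases) and CTDP1 (2833 bases) gave -0.12, -0.23 and -0.14, below the interquartile range of their length class, and CTDSP1 (1516 bases) gave -0.14, likewise below that of its class. Differences as large were common. That of WDR82 exceeded those of 72.9% of the 8966 genes of at least 16 CPM, that of RPAP2 60.3%, and those of the other 6 genes between 25.4% and 49.0%. The lengths are of 1 annotated transcript per gene, and the part of 3′ UTR length in these differences was not tested.

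**Figure D4:**
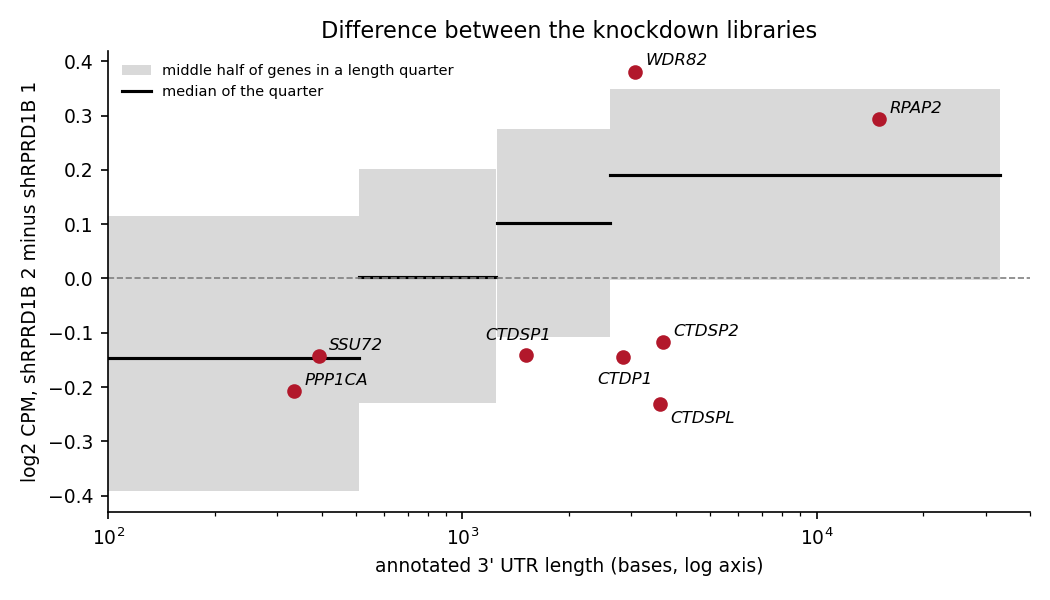
Log2 CPM in shRPRD1B 2 minus shRPRD1B 1 for the 8 tested genes (red points) against annotated 3′ UTR length on a log axis that starts at 100 bases, over the median (black) and interquartile range (grey) of all genes of at least 16 CPM in 4 classes of length. RPAP2 and WDR82 lie above 0 at 0.29 and 0.38, and the other 6 genes lie below it.

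The 3′ UTRs of the 9 genes were also searched, on the transcribed strand, for seed matches of the hosted microRNAs and for ACTAGC, a word chosen on the fold changes of these same libraries, as more common among the lower transcripts, so that its presence is a description only. RPAP2 alone held any of them. Its sites are shown with up to 10 bases on each side, capitals marking the match. In the order shown they begin at bases 7530, 7492 and 11902 of the annotated 3′ UTR. Whether the RPAP2 transcripts of these cells reach that far was not tested.
RPAP2 miR-26 seed match (chr1:92394531-92394557, plus strand): tagtcccagcTACTTGAgaggctacat
RPAP2 first ACTAGC (chr1:92394493-92394518, plus strand): attttaaaaaACTAGCcaggcatggt
RPAP2 second ACTAGC (chr1:92398903-92398928, plus strand): tccaaattaaACTAGCaaaatatgaa
In 55 tested genes with 3′ UTRs of 0.8 to 1.2 times the length of that of RPAP2, TACTTGA occurred in 58.2% and ACTAGC in 87.3%, so their presence in RPAP2 is common for its length. RPAP2, the one gene here with ACTAGC, had a positive fold change. The 3′ UTRs of CTDSP2 and CTDSPL, which host miR-26 genes, did not contain TACTTGA, which occurs in 25.9% and 26.1% of 3′ UTRs of similar length, and that of WDR82, which hosts let-7g, did not contain the let-7 match CTACCTC (14.9% of 3′ UTRs of similar length).

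The remaining genes of the pathway came from fixed lists, and edgeR called 0 of their members over all genes. In the FCP/SCP family the 9 tested genes had 6 positive and 3 negative fold changes with a median of 0.08. The family median was 0.12 in shRPRD1B 1 and 0.02 in shRPRD1B 2. Beyond the genes above, the family holds CTDSPL2 (0.17 ± 0.11), UBLCP1 (-0.01 ± 0.12), TIMM50 (-0.11 ± 0.14), the nuclear envelope phosphatase gene CTDNEP1 (0.14 ± 0.11) and its partner CNEP1R1 (-0.14 ± 0.15). In the PP1 complex, PPP1CB gave 0.17 ± 0.11, PPP1CC 0.08 ± 0.11 and TOX4, the DNA-binding subunit, -0.03 ± 0.14 (log2 fold change ± SE). None of these 2 lists' members had an unadjusted p under 0.05, or was called by DESeq2.

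Among the other nuclear regulators of PP1, PPP1R2, which encodes the inhibitor-2 protein, had 82.0, 84.4, 60.4 and 52.3 CPM. Both knockdown libraries lay below both controls, as for 20.6% of all tested genes. The log2 fold change of PPP1R2 was -0.56 ± 0.12, called lower by DESeq2 (adjusted p = 0.0439) and not by edgeR (adjusted p = 0.414). DESeq2 called 1.18% of all tested genes. PPP1R8, which encodes the NIPP1 scaffold, gave 0.13 ± 0.11 and PPP1R7 -0.08 ± 0.11, and PPP1R11 was not tested. The PP2A subunits and Integrator proteins that form the other large CTD phosphatase had positive values for 6 of 6 genes, with a median of 0.18, beside 50.5% positive among all tested genes. INTS6 had the smallest p of them (0.34 ± 0.20), followed by PPP2CB (0.19 ± 0.12) and INTS8 (0.17 ± 0.12), and 0 of the 6 had an unadjusted p under 0.05 or a DESeq2 call. The median of this list was 0.09 in shRPRD1B 1 and 0.25 in shRPRD1B 2.

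Other lists hold the partners of single phosphatases. The SET1 complexes and ZC3H4, which share WDR82, had 8 of 9 positive values and a median of 0.14, from -0.02 in shRPRD1B 1 to 0.33 in shRPRD1B 2. ASH2L, a core methyltransferase subunit, had 55.5, 53.9, 65.2 and 66.2 CPM (0.26 ± 0.11, edgeR adjusted p = 0.674), while RBBP5 gave 0.24 ± 0.16 and CXXC1 0.14 ± 0.11. The cleavage factors around SSU72 had 9 of 11 positive values and a median of 0.09, with CSTF1 at 0.20 ± 0.12, FIP1L1 at 0.17 ± 0.12 and WDR33 at 0.16 ± 0.12, and CPSF1 had too few counts to be tested. The genes of polymerase assembly and import, RPAP2 among them, had 4 of 11 positive and a median of -0.04, with GPN1 at 0.18 ± 0.12, GPN3 at -0.18 ± 0.13 and SLC7A6OS at -0.20 ± 0.15. TFIIF, the partner of FCP1, gave 0.02 ± 0.10 for GTF2F1 and 0.04 ± 0.12 for GTF2F2. REST and its corepressors, which recruit the small phosphatases, had 3 of 6 positive and a median of 0.03, with RCOR1 at 0.38 ± 0.19, SIN3A at 0.15 ± 0.13 and HDAC2 at 0.09 ± 0.10. None of the genes in these 5 lists had an unadjusted p under 0.05 or a DESeq2 call.

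The kinases place the marks that the phosphatases remove. Of 12 tested CTD kinase and cyclin genes, 7 were positive, and the median was 0.09, made of -0.10 for shRPRD1B 1 and 0.19 for shRPRD1B 2. An unadjusted p under 0.05 was found with edgeR for 2 of the 12, against 7.49% of all tested genes. These were CCNC, the cyclin of the Mediator kinases, and MNAT1, of the CDK-activating kinase. Both were lower, with -0.60 ± 0.11 and -0.58 ± 0.14, and DESeq2 called CCNC (adjusted p = 0.00771). CDK7, also of the CDK-activating kinase, gave -1.22 ± 0.83 from means of only 2.06 CPM in shCtrl and 0.873 CPM in shRPRD1B. CCNH, of the same kinase, gave 0.26 ± 0.12. CCNT2, a cyclin of the elongation kinase, had the largest positive value at 0.36 ± 0.16 (edgeR adjusted p = 0.683), with 42.2, 44.8, 48.3 and 63.2 CPM. The RPRD family had RPRD1B at -0.68 ± 0.16, RPRD1A at 0.06 ± 0.10 and RPRD2 at 0.46 ± 0.20.

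RPAP2, the phosphatase gene with the smallest p, was compared with all other genes of at least 16 CPM by the shape of its profile over the 4 libraries. The 3 closest of 8902 were OBI1, NUFIP2 and UHMK1, with root mean square differences of 0.0082, 0.00935 and 0.0098 on the centred log2 CPM scale. With 4 libraries such likeness is common, as 471 genes lay within 0.05.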

How the data were processed

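The deposited values were raw read counts per gene, 1 table per library. The submitters' processing notes name Trim Galore, HISAT2, featureCounts and hg38; tool versions, the gene annotation, strandedness and the handling of multi-mapping reads: not given in the sources used here. Symbols were matched by identifier (62686 of 69222), and 0 columns were left unused. The members and lists were chosen with earlier results of these data known.

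Counts were tested in R 4.3.3 with edgeR 4.0.16, by its robust quasi-likelihood fit with TMM factors, filterByExpr with a minimum count of 10, the group as only term and Benjamini-Hochberg adjustment over 20319 genes. Log2 CPM used a prior count of 2. DESeq2 1.42.0, limma voom 3.58.1, other size factors, filters, an older fit, a replicate block and leaving out each library were alternatives. Named genes were all 9 members, RPRD1B, the 3 smallest p per list, and the 3 genes closest to the member with the smallest p. Others, such as the genes near PPP1R10, GLMN, RAD9A, POLR2A, UBLCP1, TIMM50, CDK7 and CCNH, were named after their values were seen. Lengths and 3′ UTRs came from GENCODE 29, gene positions and microRNA sequences from RefSeq (GRCh38.p14), which is the same primary assembly. The 3′ UTR was that of the principal transcript, or the longest where several ranked equal. The 2 libraries of each group were not duplicates (chi-square statistic over its degrees of freedom: 8.97 between the shCtrl libraries, 98.6 between the shRPRD1B libraries).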

Additional observations from a re-analysis of the deposited data

How the results depend on the processing

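Of 104 values for the 8 tested genes under the 13 alternatives, 94 kept their direction and their side of the threshold, 3 passed it and 7 changed sign, all 10 of these when a library was left out. No other alternative called any of the 8 or turned its sign. With 1 library left out, PPP1CA ranged from -0.13 to 0.079, CTDP1 from -0.11 to 0.18, CTDSPL from -0.035 to 0.20 and WDR82 from -0.11 to 0.27, and the number of the 8 genes called ranged from 0 to 3, the 3 being without shRPRD1B 1. Calls over all genes numbered 14 in the main edgeR test, 7 with the older fit, 40 with no low-count filter, 141 with the replicate number as a block, 240 with DESeq2, and 0 with at least 5 CPM in 2 libraries or with limma voom (874 and 1460 at an unadjusted p under 0.05). They ranged from 54 to 6235 with 1 library left out, in fits that take a single library to vary as the remaining pair does; the values were 56 and 54 without shCtrl 1 and 2, and 6235 and 2229 without shRPRD1B 1 and 2. The cause of these shifts was not tested. Under the block, 0 of the 8 genes were called. The labels give both groups replicate numbers 1 and 2, but with 2 pairs these do not show pairing (correlation of same-numbered deviations 0.21 over 8966 genes). The 8 genes had at least 807 counts in every library.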
